A study of Mus musculus with 21 samples.

Results

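Collagens and laminins were examined in the neocortex of rNLS8 mice and control littermates. Neocortex is the tissue of the sample labels, whereas a figure legend of the study names hippocampus for rNLS8 mice, and the labels were followed here. All rows of the count table whose symbol has the form of a collagen chain (Col, a number, a and a number) or of a laminin alpha, beta or gamma chain were taken. Of 55 such rows, 53 averaged 10 counts or more over the 21 mice and were kept, namely 42 collagen genes and 11 laminin genes, out of 18266 rows of the whole table that reached this mean. Col9a1 and Col10a1 fell below it. All 53 genes entered the test, so none was lost to a filter on low counts. The members were chosen by their names and their mean over all mice, not by their difference between genotypes.

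Bulk RNAseq had been done on 21 mice aged 17-19 weeks, 11 labelled WT and 10 labelled TG. TG mice are rNLS8 mice, which carry a transgene for TDP-43 without its nuclear localization signal (TDP-43ΔNLS) under a tetracycline-controlled activator driven by the NEFH promoter, and doxycycline in the diet keeps the transgene off. The paper describes its expression as almost only neuronal, with very sparse expression in oligodendrocytes. Which cells expressed the transgene in these mice was not tested here. WT mice are described as monogenic control littermates, without saying which single transgene they carry. Every mouse of both groups received the same non-targeting antisense oligonucleotide (ASO) by intracerebroventricular injection, at 350 µg in 10 µL. All were fed doxycycline (200 mg/kg) until 2 weeks after the injection, then chow without it, and were killed 3 weeks later. Batch A (4 WT, 3 TG) and batch B (7 WT, 7 TG) were independent cohorts. Sex is not given in the labels.

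Total counts were between 20700912 and 22263809 per mouse. Slc17a7, the vesicular glutamate transporter of cortical excitatory neurons, was at 24029.6-37439.7 normalized counts in WT and 26446-44356 in TG mice. The Tardbp row, for which the sources used here do not say whether reads of the transgene were counted in it, was at 2253-2827 normalized counts in WT mice and 2363-5053 in TG mice. The lowest TG value, of TG mouse T_61340, lay among the WT values, so results are given below also without this mouse where it matters. Normalized counts are counts scaled to a common library size with TMM factors. Fold changes are log2 values of TG against WT from edgeR's quasi-likelihood test with batch as covariate, followed by their standard error (SE), and adjusted p values are Benjamini-Hochberg values over all 18248 genes tested.

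Collagens are triple helices of alpha chains. Type IV collagen forms the network of basement membranes, the sheets that surround brain vessels and lie under the pia. Fibrillar collagens build the fibrils of meninges and large vessels, fibril-associated collagens coat such fibrils, and transmembrane collagens span the plasma membrane and can be shed from it. Laminins are cross-shaped trimers of an alpha, a beta and a gamma chain that polymerize on the cell surface and are linked by nidogen to type IV collagen. In the brain, endothelial cells, pericytes, fibroblasts and astrocytes lay down most of this matrix, while a few collagens are made by neurons.

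Most collagen and laminin genes did not pass the test. At an adjusted p under 0.05, 9 of 53 members (17.0%) did, against 44.7% of all genes tested. Col4a2, Col5a3 and Col9a2 were higher in TG mice (23% of all genes tested were), and 6 members, Col25a1, Col20a1, Col12a1, Lama3 and Col13a1 among them, were lower (21.7% of all genes tested were). The other 44 had log2 fold changes from -0.49 to 0.35, of which 38 were smaller than 0.25 in either direction, with a median SE of 0.15 (range 0.064-0.41). The median log2 fold change was -0.08 over the members and -0.00069 over all genes. Its median size in either direction was 0.14 over the members and 0.18 over all genes. The median SE was 0.14 over the members and 0.073 over all genes, so the shares past the threshold do not compare sizes of change. DESeq2 called 9 members as well, and 9 had an unadjusted p under 0.05. The share of genes that passed depended on their counts. Among genes with a mean of 10-50 counts, 26.9% of all genes and 2 of 16 members passed. At 50-200 counts it was 38.7% and 3 of 17, and at 200-1000 counts 47.9% and 4 of 20.

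**Figure D1:**
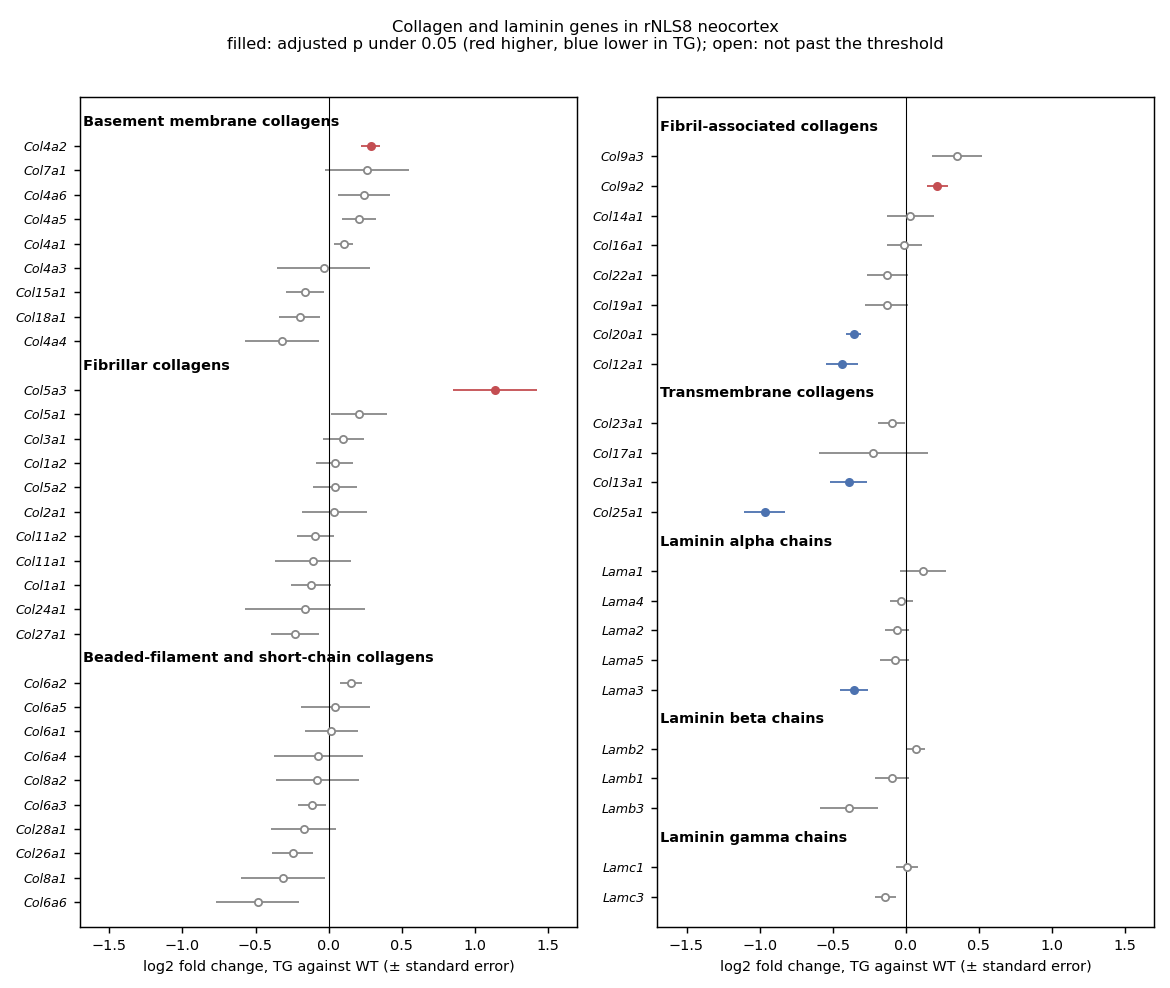
Log2 fold change of TG against WT (x axis, ± standard error) for 52 of the 53 genes, grouped by class. Filled points passed the test, with Col4a2, Col5a3 and Col9a2 higher (red) and Col25a1, Col20a1, Col12a1, Lama3 and Col13a1 lower (blue) in TG mice, and the open points of the other 44 genes lie between -0.49 and 0.35.

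Levels per length order the members differently from counts. The following levels are normalized counts per kilobase of exon in WT mice (mean ± SD, n = 11). The highest were the laminin beta chain Lamb2 (119 ± 11.4), the type IV collagen chains Col4a2 (95.4 ± 11.4) and Col4a1 (92.6 ± 8.48), and the laminin gamma chain Lamc1 (84.5 ± 7.16). Lamb2, Lamc1 and both collagen chains belong to basement membranes of brain vessels. Col4a2 and Col4a1 lay within 1 SD of each other, as did Col20a1 (70.4 ± 5.6) and Col25a1 (67.2 ± 12.7), which followed in ranks 6 and 7. The laminin chains Lama3 and Lamb3 were far lower at 11 ± 2.0 and 4.84 ± 1.40. Col5a3, which had the highest fold change, was rank 43 at 3.32 ± 1.38, and Col4a3 was the lowest of the 53 at 1.21 ± 0.548.

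The genes for the main chains of type IV collagen, Col4a1 and Col4a2, lie head to head on chromosome 8 (GRCm38), with Col4a1 at chr8:11198423-11312826 on the minus strand and Col4a2 at chr8:11312805-11449287 on the plus strand. The annotated genes overlap by 22 bases at their 5′ ends, where reads cannot be assigned without strand. They share a bidirectional promoter region, and their products assemble into one trimer. The sequences of this region are shown because the genes differed in their response below, and those of Col25a1 and Col5a3 because these had the largest fall and rise. Each runs 5′ to 3′ on the gene's own strand from 250 bases before to 50 after the start in RefSeq (GRCm38.p6). Capitals mark CCAAT (or ATTGG on the other strand) and GGGCGG (or CCGCCC).

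Col4a1, chr8:11312777-11313076, minus strand: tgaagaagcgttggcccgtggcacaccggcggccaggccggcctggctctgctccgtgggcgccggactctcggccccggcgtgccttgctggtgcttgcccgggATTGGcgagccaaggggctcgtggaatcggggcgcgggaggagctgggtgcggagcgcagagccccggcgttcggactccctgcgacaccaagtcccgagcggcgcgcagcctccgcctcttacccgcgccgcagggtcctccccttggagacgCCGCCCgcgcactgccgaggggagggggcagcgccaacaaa

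Col4a2, chr8:11312555-11312854, plus strand: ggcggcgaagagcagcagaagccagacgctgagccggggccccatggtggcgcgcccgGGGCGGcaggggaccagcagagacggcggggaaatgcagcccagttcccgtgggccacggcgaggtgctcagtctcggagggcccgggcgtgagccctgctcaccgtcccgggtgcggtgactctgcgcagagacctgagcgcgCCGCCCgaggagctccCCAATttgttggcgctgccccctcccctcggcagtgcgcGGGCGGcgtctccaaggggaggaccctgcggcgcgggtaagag

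Col25a1, chr3:130180595-130180894, plus strand: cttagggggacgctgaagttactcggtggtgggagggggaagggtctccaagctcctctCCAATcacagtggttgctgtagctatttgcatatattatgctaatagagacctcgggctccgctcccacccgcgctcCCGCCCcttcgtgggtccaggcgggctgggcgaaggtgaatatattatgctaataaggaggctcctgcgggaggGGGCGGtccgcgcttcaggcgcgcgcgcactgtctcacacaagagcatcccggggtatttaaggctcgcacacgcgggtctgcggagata

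Col5a3, chr9:20815018-20815317, minus strand: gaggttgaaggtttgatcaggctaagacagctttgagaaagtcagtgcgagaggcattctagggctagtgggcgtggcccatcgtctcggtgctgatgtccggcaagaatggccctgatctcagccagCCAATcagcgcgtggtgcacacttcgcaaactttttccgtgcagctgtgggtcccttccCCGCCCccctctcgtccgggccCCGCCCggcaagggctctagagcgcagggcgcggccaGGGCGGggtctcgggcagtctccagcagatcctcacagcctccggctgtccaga

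The last 78 bases of the Col4a1 and Col4a2 windows are the same DNA read from opposite strands, and the 1 GGGCGG match of Col4a1 lies in this stretch, where it is also 1 of the 3 of Col4a2. GC content was 74.0% for Col4a1, 73.7% for Col4a2, 60.0% for Col25a1 and 63.3% for Col5a3. Col25a1 had 2 GGGCGG matches and Col5a3 had 3, and each of the 4 windows had 1 CCAAT match. TATAAA, searched on both strands as well, was in none of the 4. Matches of different motifs did not overlap in these windows. Of all 32851 RefSeq windows, 37.4% held CCAAT, 35.7% GGGCGG and 13.6% TATAAA. Of the 41 windows available for 38 of the 53 members, 31.7% held CCAAT, 63.4% GGGCGG and 9.76% TATAAA. The Col25a1 window lies inside the longer gene model that GENCODE M21 annotates at chr3:130131501-130599877.

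Among the 9 basement membrane collagens, Col4a2 was the only one past the threshold with TMM factors, and with library size alone Col4a1 passed too (adjusted p = 0.0308). Col4a5 passed without TG mouse T_61340 (log2 fold change 0.28, adjusted p = 0.0271), against 0.21 and an adjusted p of 0.149 over all mice. The lowest, median and highest normalized counts of Col4a2 were 488, 666 and 711 in WT mice and 679.9, 766 and 916 in TG mice. The Col4a2 groups overlapped, but 7 of 10 TG mice lay above every WT mouse, and all 10 lay above the WT median of their own batch. Col4a2 was 0.29 higher on the log2 scale (SE 0.067, adjusted p = 0.00115 with edgeR), with 0.43 in batch A (adjusted p = 0.0664 in batch A alone) and 0.22 in batch B (adjusted p = 0.0182). Its partner Col4a1 was at 556, 703 and 781 in WT and 612, 743 and 895 in TG mice, a log2 fold change of 0.10 (SE 0.065, adjusted p = 0.198). Whether the 2 chains responded differently was tested on their ratio in each mouse, a comparison chosen after their values were seen. The log2 ratio of Col4a2 over Col4a1 (2 added to each normalized count) was -0.13 ± 0.16 in WT mice and 0.059 ± 0.061 in TG mice (mean ± SD). It was 0.19 higher in TG mice within batches (exact permutation test within batch, two-sided p = 0.000491, 0.00147 adjusted over 3 gene pairs), with 0.32 in batch A and 0.12 in batch B. For 7 of 10 TG mice the ratio was above that of every WT mouse, and the lowest WT ratios, -0.47 among them, were in batch A. Without any 1 mouse the difference was 0.16-0.20 and the exact permutation p at most 0.00266.

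Across mice the chains nonetheless moved together. After the mean of each genotype and batch was removed, log2 CPM of Col4a1 and Col4a2 had a Pearson r of 0.81 and a Spearman rho of 0.81 over 21 mice (permutation within genotype and batch, p adjusted over 6 chain pairs = 0.00015 and 0.00027), and r was 0.74 without the 2 mice farthest from the median. Col1a1 and Col1a2, which form type I collagen, gave r = 0.85 and rho = 0.81 (adjusted permutation p = 0.00015 and 0.00027), and r was 0.77 without 2 mice.

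The other type IV chains are made mainly in specialized basement membranes. Col4a3 and Col4a4 (log2 fold changes -0.03 and -0.32, SE 0.32 and 0.26) and Col4a5 and Col4a6 (0.21 and 0.24, SE 0.11 and 0.18) are also neighbours in head-to-head pairs. Their log2 ratios differed by 0.14 (exact permutation p = 0.599) and -0.08 (p = 0.627, both adjusted to 0.627) between genotypes. Col7a1, which forms anchoring fibrils, and Col15a1 and Col18a1, whose C-terminal fragments include endostatin, were at 0.26, -0.16 and -0.20 (adjusted p = 0.486, 0.341 and 0.260).

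**Figure D2:**
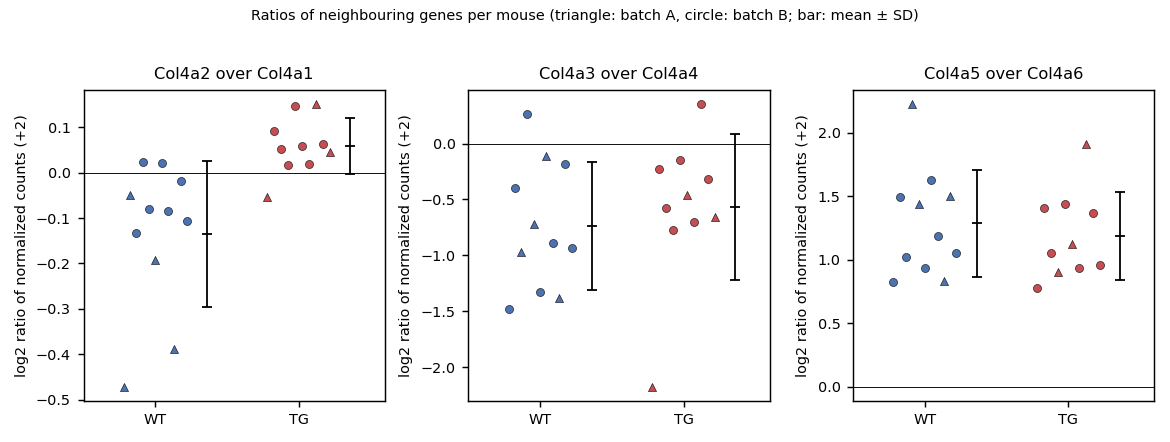
Log2 ratio of normalized counts (y axis, 2 added to each) for 3 pairs of neighbouring type IV collagen genes in each mouse, with mean ± SD beside each genotype. The Col4a2 over Col4a1 ratio was 0.19 higher in TG mice within batches, and those of Col4a3 over Col4a4 and Col4a5 over Col4a6 overlap widely between genotypes.

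Among the 11 fibrillar collagens, only Col5a3 passed, which encodes a minor chain of type V collagen, a collagen that is incorporated into type I fibrils and limits their width. Normalized counts were low, 6.26, 18.5 and 39.4 (lowest, median, highest) in WT mice and 28.8, 37.3 and 123 in TG mice. All 10 TG mice lay above the WT median of their batch and 4 above every WT mouse, with the highest value in TG mouse T_60303. The log2 fold change was 1.14 (SE 0.29, adjusted p = 0.00215 with edgeR), 1.82 in batch A and 0.80 in batch B (adjusted p = 0.0442 and 0.0270 in each batch alone), and 0.85 without TG mouse T_60303. The other type V chains were at 0.21 (Col5a1, SE 0.19) and 0.04 (Col5a2, SE 0.15). The type I and III collagens, which make up most of the fibrils of meninges and adventitia, were at -0.12 for Col1a1 (SE 0.14, adjusted p = 0.497), 0.04 for Col1a2 (SE 0.13, adjusted p = 0.821) and 0.10 for Col3a1 (SE 0.14, adjusted p = 0.591). WT and TG ranges of Col1a1 were 180.0-434 and 148-297 normalized counts. The remaining fibrillar collagens (Col2a1, Col11a1, Col11a2, Col24a1 and Col27a1) lay between -0.23 and 0.04.

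Fibril-associated collagens had 3 of 8 members past the threshold (37.5%, against 44.7% of all genes tested), in both directions. Col20a1 was at 305, 366 and 415 normalized counts (lowest, median, highest) in WT and 258, 274 and 331 in TG mice. The groups touched only at their edges, with 8 of 10 TG mice below every WT mouse. Col20a1 fell by 0.36 on the log2 scale (SE 0.051, adjusted p = 4.26e-06 with edgeR), with -0.26 in batch A and -0.40 in batch B (adjusted p = 0.234 and 1.24e-05 in each batch alone). Its gene lies at chr2:180986535-181018363. Col12a1, whose product bridges type I fibrils and other matrix proteins, was at 124, 139 and 194 in WT and 73.6, 111 and 142 in TG mice, and 8 of 10 TG mice were below every WT mouse. It fell by 0.43 on the log2 scale (SE 0.11, adjusted p = 0.00228), with -0.39 in batch A and -0.45 in batch B (adjusted p = 0.272 and 0.00641 in each batch alone).

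Col9a2, a chain of type IX collagen, which decorates cartilage fibrils, was higher by 0.22 on the log2 scale (SE 0.074, adjusted p = 0.0190). It was at 132, 156 and 203 normalized counts in WT and 157, 184 and 215 in TG mice, 10 of 10 above the WT median of their batch but only 2 above every WT mouse. The call was lost without the batch term (adjusted p = 0.0507), without TG mice T_61340 and T_60303 (adjusted p = 0.0558), and in batch A and batch B alone (adjusted p = 0.312 and 0.0645). Another chain of the same trimer, Col9a3, was at 0.35 (SE 0.17, adjusted p = 0.101), with -0.19 in batch A and 0.62 in batch B (adjusted p = 0.00290 in batch B alone). Col14a1, Col16a1, Col19a1 and Col22a1 lay between -0.13 and 0.03.

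The transmembrane collagens had 2 of 4 members past the threshold (50%, against 44.7% of all genes tested). Both were lower in TG mice, as were 21.7% of all genes tested. Col25a1, made by neurons and known as the precursor of a component of amyloid plaques, was at 566, 854 and 1159.5 normalized counts (lowest, median, highest) in WT and 181, 452 and 642 in TG mice. It was below every WT mouse in 8 of 10 TG mice, and TG mouse T_61340 had by far the lowest value. Col25a1 fell by 0.96 on the log2 scale (SE 0.14, adjusted p = 4.88e-06 with edgeR), with -1.31 in batch A and -0.80 in batch B (adjusted p = 0.00626 and 0.000122 in each batch alone), and by 0.86 without TG mouse T_61340. Beside it, 4 of 6 neuronal markers were lower in TG mice and none higher, namely Snap25 (-0.75, SE 0.048), Syt1 (-0.53, SE 0.055), Gad1 (-0.45, SE 0.076) and Gad2 (-0.32, SE 0.13), while Rbfox3 and Slc17a7 were at -0.10 and 0.06 and did not pass. DESeq2 called 3 of the 6, without Gad2 (adjusted p = 0.0413 with edgeR and 0.0550 with DESeq2). The summed neuronal marker level was 110345-137570 normalized counts in WT and 82065-107745 in TG mice, and its part in the Col25a1 result was not tested. In bulk tissue, fewer cells of a type and less RNA per cell cannot be told apart. Col13a1, a transmembrane collagen of synapses between nerve and muscle and of other adhesion sites, was at 29.2, 40.4 and 61.5 in WT and 23.5, 31.9 and 41.5 in TG mice and fell by 0.39 on the log2 scale (SE 0.13, adjusted p = 0.0144), with 9 of 10 TG mice below the WT median of their batch. It did not pass in batch A alone (-0.46, adjusted p = 0.262) or in batch B alone (-0.35, adjusted p = 0.0789). Col17a1 and Col23a1 were at -0.22 and -0.10 (SE 0.37 and 0.091).

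The 10 beaded-filament and short-chain collagens had 0 calls with edgeR, 0 with DESeq2 and 0 with an unadjusted p under 0.05, while Col6a2 passed when library size alone was used (adjusted p = 0.0187). Type VI collagen, a microfibril of pericellular matrix, was at 0.02 for Col6a1 (SE 0.18), 0.15 for Col6a2 (SE 0.074, adjusted p = 0.0997) and -0.11 for Col6a3 (SE 0.094). Across mice, Col6a1 and Col6a2 had r = 0.43 and rho = 0.48 (adjusted permutation p = 0.0566 and 0.0346). Col8a1 and Col8a2, chains of a network under some endothelia, were at -0.31 and -0.08 with wide ranges, for example 31.1-518 normalized counts of Col8a2 in WT mice. The other 5 (Col6a4, Col6a5, Col6a6, Col26a1 and Col28a1) lay between -0.49 and 0.05.

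**Figure D3:**
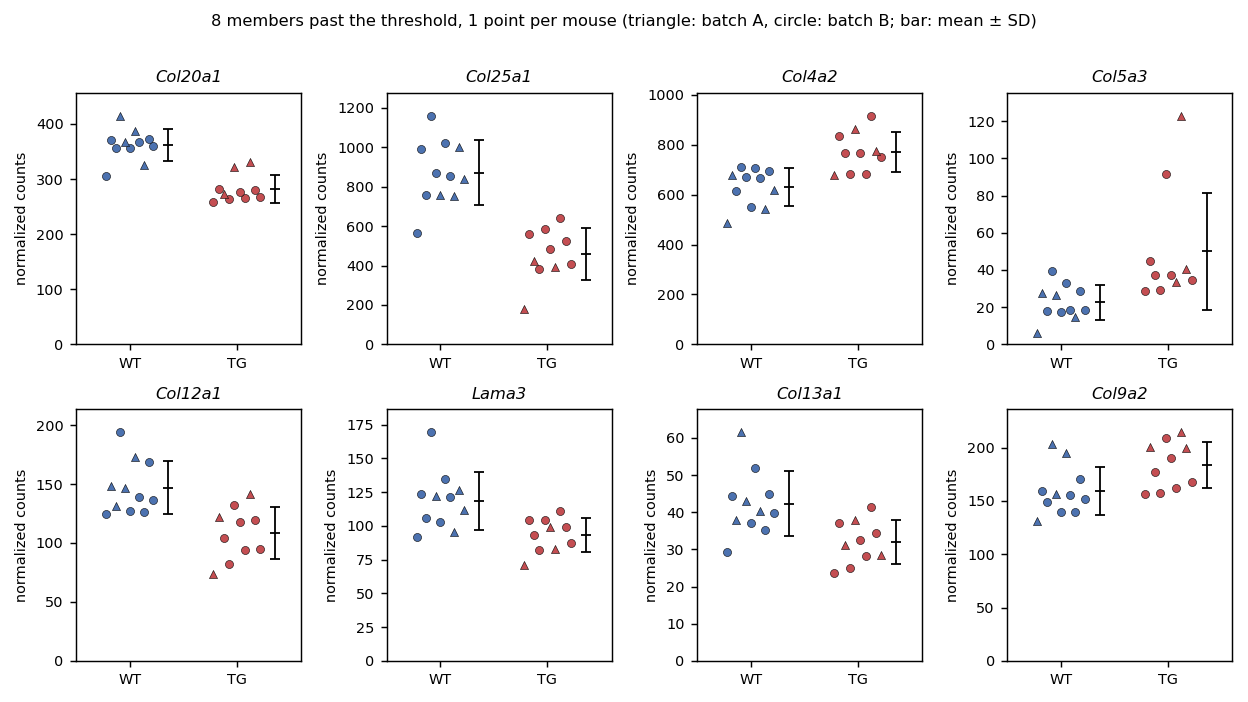
Normalized counts (y axis, from 0) of 8 genes past the threshold, 1 point per mouse, with mean ± SD beside each genotype. The genotypes overlap in each of these panels, and for Col4a2 the TG mice are at 679.9-916 and the WT mice at 488-711.

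Among the laminins, Lama3, an alpha chain found mainly in epithelial basement membranes, passed the threshold. Its normalized counts were 91.9, 121 and 169 in WT and 70.6, 96 and 111 in TG mice (lowest, median, highest), which overlapped. The genotypes overlapped for all 8 called members named here. Over all genes tested, 3.85% had every TG mouse above every WT mouse and 3.8% had every TG mouse below. The 8 are only part of the called members, so these shares cannot be compared with them. Lama3 fell by 0.35 on the log2 scale (SE 0.10, adjusted p = 0.00458), and all 10 TG mice lay below the WT median of their batch. It was at -0.41 in batch A and -0.33 in batch B (adjusted p = 0.166 and 0.0384 in each batch alone). The beta chain Lamb3 had few counts, 20.2, 30.1 and 49.9 in WT and 13.7, 23.7 and 40.0 in TG mice. Its log2 fold change was -0.39 (SE 0.20, adjusted p = 0.116), and it passed without TG mouse T_61340 (adjusted p = 0.0381).

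Lamc1, the gamma chain of most laminins of brain vessels, is at chr1:153218922-153332786 on the minus strand. Its normalized counts were 624, 677 and 819.5 in WT and 488, 699 and 873 in TG mice, a log2 fold change of 0.01 (SE 0.073, adjusted p = 0.951).

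The laminin chains of vascular and pial basement membranes had standard errors of 0.064-0.12 and did not pass. Lamb2 was at 0.07 (SE 0.064), Lamb1 at -0.09 (SE 0.12), Lama2 at -0.06 (SE 0.084), Lama4 at -0.03 (SE 0.079) and Lama5 at -0.08 (SE 0.10). The alpha chains Lama4 and Lama5 mark endothelial basement membranes, and Lama2 that of astrocyte endfeet and pericytes. Lama1 and Lamc3 were at 0.12 and -0.14 (adjusted p = 0.584 and 0.112). The 3 beta chains had 0 calls with edgeR, 0 with DESeq2 and 0 with an unadjusted p under 0.05. Across mice Lamc1 was related to its partners Lamb1 (r = 0.45, rho = 0.62, adjusted permutation p = 0.0068 and 0.00654) and Lamb2 (r = 0.43, rho = 0.52, adjusted permutation p = 0.0403 and 0.0346). Without the 2 mice farthest from the median, r was 0.30 for Lamb1 and 0.43 for Lamb2. The relation to Lamb2 did not hold throughout, and passed in only 10 of the 21 fits that left out 1 mouse each (r 0.35-0.72, adjusted permutation p up to 0.124 without WT mouse T_61334). For Lama4 and Lamc1, r was 0.045 and rho -0.081 (adjusted permutation p = 0.79 and 0.722).

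The cohorts gave the same direction for 34 of 53 members and for 9 of 9 past the threshold. The 9 were called from both batches together, so their shared direction is largely built in and is no replication. The share of all genes with the same direction was not counted. In batch A alone 3 members passed (Col25a1 and Col5a3 among them, against 11.8% of all genes). In batch B alone 8 passed (against 39.1% of all genes), of which 7 were among the 9 and Col9a3 was not, and Col13a1 and Col9a2 were lost. For the interaction of genotype and batch, 0 of 18248 genes (0%) passed with edgeR, and 1030 had an unadjusted p under 0.05. Among the members, 0 passed and 6 had an unadjusted p under 0.05, among them Col8a1 (0.00614), Col9a3 (0.0162), Col17a1 (0.0183), Col8a2 (0.0198) and Col4a3 (0.0281). Each of these 5 collagens had a lower fold change in batch A than in batch B.

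**Figure D4:**
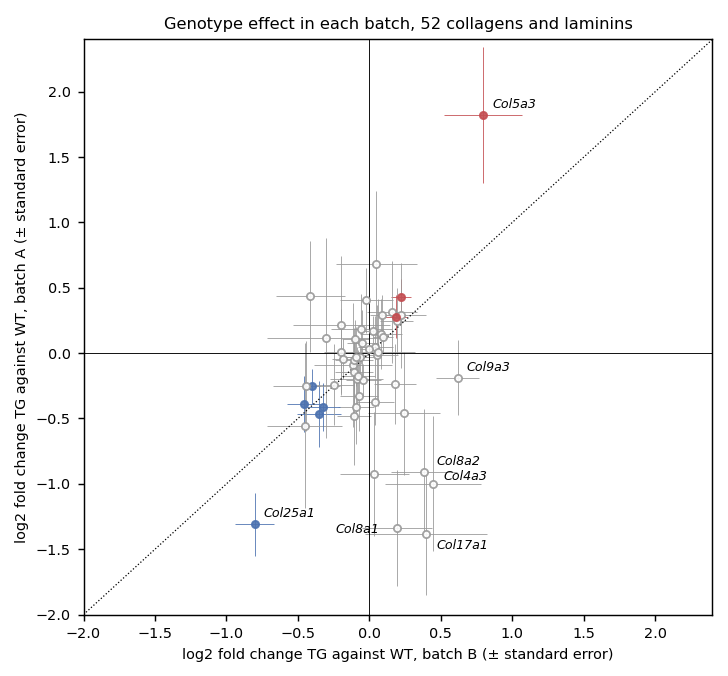
Log2 fold change of TG against WT (± standard error) of each of 52 genes in batch B (x axis) and batch A (y axis), with filled points past the threshold over both batches. The 8 filled points share their sign in both batches, and Col8a1, Col8a2, Col17a1 and Col4a3 lie at or below -0.91 in batch A and above 0 in batch B.

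Col9a3 and Col8a2 varied with choroid plexus markers between mice. The choroid plexus is the epithelium of the ventricles that secretes cerebrospinal fluid, and its marker Ttr (transthyretin) ranged from 187 to 43158 normalized counts, a 231-fold span, with the highest value in WT mouse T_61334 of batch A. The 5 markers (Ttr, Folr1, Kl, Clic6 and Kcnj13) had 0 calls between genotypes with edgeR, 0 with DESeq2 and 0 with an unadjusted p under 0.05, and their summed level was 441-47341 normalized counts in WT and 630-24084 in TG mice. Their direction differed between batches. All 5 were lower in TG mice in batch A (log2 fold changes -1.76 to -1.49) and higher in batch B (0.40 to 1.19). The relation of each member to the mean log2 CPM of these markers was examined after this spread was seen, with genotype and batch means removed. The test was run on all 18243 other genes and its p adjusted over them. Of 53 members, 2 were positively related past the threshold by Pearson's r, against 0.214% of all genes, and 0 negatively, against 0%. At an unadjusted permutation p under 0.05 it was 12 members positively and 1 negatively, against 3.06% and 1.63% of all genes. Col9a3 gave r = 0.90 and rho = 0.93 (adjusted permutation p = 0.00652 and 0.00629), with an r of 0.98 in batch A and 0.85 in batch B. Col8a2 gave r = 0.82 (adjusted permutation p = 0.0171 for r and 0.00629 for rho). Col4a4 and Col8a1 had r of 0.81 and 0.80 and did not pass by r (adjusted permutation p = 0.0649 and 0.0552), while by rho Col8a1 passed (adjusted permutation p = 0.0296) and Col4a4 did not (0.0511). For Col17a1, Col4a3 and Col18a1, r was 0.68, 0.65 and 0.60. Without the 2 mice farthest from the median, r was 0.61-0.88 for the first 6 and 0.46 for Col18a1. From Col8a2 to Col18a1, Spearman's rank correlation with the markers was 0.86, 0.82, 0.82, 0.68, 0.72 and 0.66 in this order.

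With the marker mean as an added covariate, the 9 members past the threshold all remained so, and Col9a3 joined them (log2 fold change 0.34, adjusted p = 0.000574). Over all genes, 8186 passed with the covariate (44.9%) and 8154 without it. Members with an unadjusted interaction p under 0.05 went from 6 to 2, now Lama1 (p = 0.0285) and Col5a3 (p = 0.0300), and over all genes their number went from 1030 to 797.

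**Figure D5:**
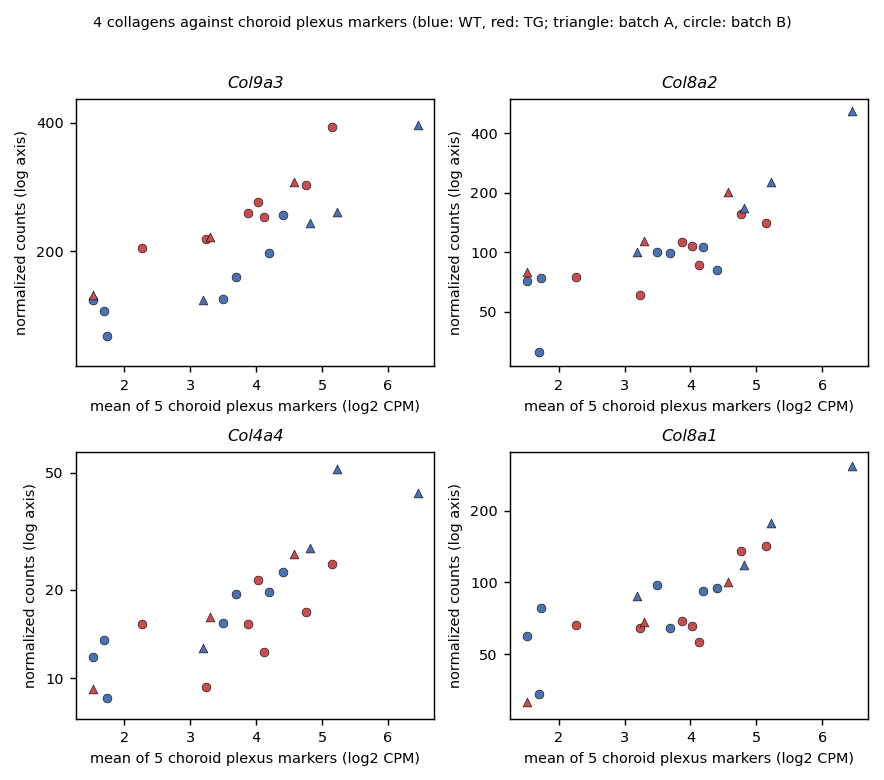
Normalized counts of 4 collagens (y axis, log scale) against the mean log2 CPM of 5 choroid plexus markers (x axis), 1 point per mouse. The relation passed the test by both r and rho for Col9a3 and Col8a2, by rho alone for Col8a1 and by neither for Col4a4, and the mouse with the most markers, WT mouse T_61334, is at or near the top of each panel.

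The cells that make brain matrix were followed by markers of their own. Over all genes tested, 44.7% passed with edgeR, 23% higher and 21.7% lower in TG mice. The 9 markers of pericytes and smooth muscle had 0 calls with edgeR, 1 with DESeq2 and 1 with an unadjusted p under 0.05, and their summed level was 5813-7333 normalized counts in WT and 5622-6728 in TG mice. The 7 fibroblast markers, among them Dcn (0.05) and Lum (-0.08), had 0 calls with edgeR, 0 with DESeq2 and 0 with an unadjusted p under 0.05 (summed level 2324-8108 in WT and 2583-4837 in TG mice). Of 8 endothelial markers, 3 passed (37.5%, against 44.7% of all genes tested). Ly6c1 rose (0.25, adjusted p = 0.00113), and the VEGF receptors Flt1 (-0.17, adjusted p = 0.00620) and Kdr (-0.27, adjusted p = 0.0152) fell, while Cldn5 and Pecam1 were at -0.03 and 0.01. The summed level of the 8 was 5410-6432 in WT and 4693-5915 in TG mice. All 5 astrocyte markers were lower, for example Gja1 (-0.27) and Slc1a2 (-0.32), with a summed level of 83513-111196 in WT and 61542-89126 in TG mice. Of 5 microglial markers, 3 were higher, Tmem119 (0.18) and Csf1r (0.13) among them, and P2ry12 was lower (-0.35). Markers of oligodendrocytes (5), their precursors (3) and erythrocytes (5) had 0 calls with edgeR, 0 with DESeq2 and 0 with an unadjusted p under 0.05. Those of macrophages (5) had 0 calls with either tool and 1 unadjusted p under 0.05 (summed level 142-285 in WT and 179-341 in TG mice). The part of these markers in the members' results was not tested.

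Proteins that modify, bind or cut collagens and laminins were taken from lists of known genes. The share past the threshold was 20.0% for other basement membrane proteins, 36% for collagen-processing genes, 46.2% for receptors, 41.7% for proteases and inhibitors and 44.4% for TGF-beta genes, against 44.7% of all genes tested. Of 5 other basement membrane proteins, Sparc, a collagen-binding glycoprotein, was higher by 0.57 on the log2 scale (SE 0.088, adjusted p = 1.08e-05), at 4276, 5365 and 6945 normalized counts (lowest, median, highest) in WT and 6259.5, 7912 and 9984 in TG mice. Nid1, Nid2, Hspg2 and Agrn lay between -0.15 and 0.12 and did not pass.

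Of 25 collagen-processing genes tested (of 27 listed), 6 were higher and 3 lower. The lysyl hydroxylase and glycosyltransferase Plod3 was at 394, 459 and 499.9 in WT and 529, 558 and 673 in TG mice, with all TG mice above every WT mouse, and rose by 0.33 (SE 0.048, adjusted p = 5.18e-06). The alpha subunit P4ha2 of collagen prolyl 4-hydroxylase rose (0.47, SE 0.079, adjusted p = 3.75e-05), as did the beta subunit P4hb (0.22), while the alpha subunits P4ha1 (-0.24, SE 0.055, adjusted p = 0.00106) and P4ha3 (-0.47) fell. The collagen chaperone Serpinh1 was at -0.05 (SE 0.086) and the crosslinking enzyme Lox at -0.06 (SE 0.21).

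Of 13 receptors tested (of 14), 4 were higher and 2 lower. The collagen receptor kinase Ddr1 rose by 0.32 (SE 0.056, adjusted p = 6.43e-05), from a median of 1516 to 1957 normalized counts. The laminin-binding integrin subunits Itga3 (0.33) and Itga7 (0.41) and their common partner Itgb1 (0.21) rose. Dag1, which encodes the laminin receptor dystroglycan, fell (-0.20, adjusted p = 0.00414), and so did the collagen-binding Itga11 (-0.47). Itga6 and Itgb4, the receptor of epithelial laminin, were at -0.08 and -0.12.

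Of 12 proteases and inhibitors tested (of 17), 4 were higher and 1 lower. Ctsk, the collagen-degrading cathepsin K, rose by 0.92 (SE 0.10, adjusted p = 9.51e-08), at 53.2, 69.6 and 85.3 normalized counts in WT and 102, 126 and 215 in TG mice. Mmp24 (0.44, SE 0.039) and Mmp2, a protease that cleaves type IV collagen (0.46, SE 0.13), rose too. The inhibitor Timp2 fell by 0.38 on the log2 scale (SE 0.069, adjusted p = 6.84e-05). For Ctsk and Mmp24 every TG mouse was above every WT mouse, and for Timp2 every TG mouse was below. Of 9 genes of TGF-beta ligands, receptors and targets, Tgfb3 (0.37) and Tgfb1 (0.34) were higher and Tgfb2 (-0.37) and Ccn1 (-0.73) lower, and the receptors Tgfbr1 and Tgfbr2 were at 0.13 and 0.10.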

How the data were processed

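RNA of neocortex from 21 mice had been isolated with a column kit, and mRNA libraries were sequenced in pairs of 100 bases. The authors deposited raw read counts per gene symbol, aligned to GRCm38 (mm10). The processing notes name HISAT, HISAT2, Bowtie, Bowtie2 and RSEM without versions or roles. Which of them gave the deposited counts, and whether strand was used, is not given in the sources used here. The authors' methods name DESeq2 without a covariate.

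Counts were analyzed here in R 4.3.3 with edgeR 4.0.16 (TMM, expression filter by genotype, quasi-likelihood test with genotype and batch, Benjamini-Hochberg over 18248 genes, threshold 0.05, two-sided). DESeq2 1.42.0 was an alternative. SE were derived from the fold change and the F statistic. Both batches hold both genotypes, and each was also fitted alone. The fits were tested on simulated data. Replicates are separate mice. Total counts were 20700912-22263809, and precision is limited further for members near 10 counts. Reads carried no molecular identifiers.

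The members and gene lists were chosen with earlier results of these data known. Members past the threshold and their chain partners are named with values, others by class, and up to 4 genes with the smallest p of each further list, plus some of known function chosen after their values were seen. Gene positions and exon lengths are from GENCODE M21. Rows of further copies of a symbol (suffix such as -2) are no members and were kept in the fit. Alternatives were other normalizations, filters and samples, no batch term, and a choroid plexus covariate chosen after seeing the data. 1 member and 1 marker gene are not reported here.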

Additional observations from a re-analysis of the deposited data

Results flagged for a closer look

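In each of the 53 genes the TG mice were searched for a mouse far from the other 9, by the gap to the nearest mouse as a share of the whole range (Dixon's test at 95%). It found 5 such genes, where 1 in 20 of 53 would be 2.65 if values were normal and came from 1 population. The values were untransformed counts pooled over both batches, so nothing is concluded from the difference. TG mouse T_60303 had the highest Col16a1 (218 normalized counts, next 160, share 0.561) and the highest Lama5 (374, next 265, share 0.607). TG mouse T_70261 had the highest Col17a1 (30.2, next 13.7, share 0.632). TG mouse T_69524 had the highest Lamc3 (238, next 210.2, share 0.528). TG mouse T_69531 had the highest Col23a1 (323, next 226, share 0.65), and without it Col23a1 was at -0.18 with an adjusted p of 0.0274 in edgeR, against -0.10 and 0.414 with it.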

How the results depend on the processing

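No paired analysis was possible because the mouse numbers are unique and the genotypes share none. The 8154 genes called over both batches became 2195 in batch A alone, and the 9 members became 3. The other planned settings gave 7126-8579 genes and 8-12 members. With library size in place of TMM, 67.9% of calls were higher in TG mice instead of 51.4%, the median of all genes was 0.0755, and 12 members were called, 6 in each direction, with Col4a1, Col6a2 and Col9a3 added. Requiring 10 counts in every mouse left 43 members, of which 8 passed. Of the 37 members with a mean of at least 50 counts, 7 were called. The interaction had 0 calls, and 2 without TG mice T_61340 and T_60303. Leaving out each mouse in turn gave 7805-8362 genes, 9-11 members and 0-1 interactions (1 without TG mouse T_60303, WT mouse T_61345 or WT mouse T_61333), and each of the 9 members stayed past the threshold in all 21 fits. The r of Col4a1 with Col4a2 was then 0.76-0.88, of Col1a1 with Col1a2 0.77-0.90, of Lamb1 with Lamc1 0.37-0.66, of Col6a1 with Col6a2 0.34-0.51 (adjusted p under 0.05 in 3 of 21), of Lamb2 with Lamc1 0.35-0.72 (10 of 21) and of Lama4 with Lamc1 -0.023 to 0.12. No called member changed its sign. Counts were low for Col5a3, Lamb3, Col4a3 and Col24a1, whose SE are 0.29, 0.20, 0.32 and 0.41. Col8a1 and Col8a2 had more counts and SE of 0.29 and 0.29, and the part of low counts in these SE was not tested.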

Other observations

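Some members have further rows in the count table for other copies of the same symbol, which the rule left out. Col11a2 had 3 such rows, with means of 301.1, 80.0 and 77.6 counts per mouse against 274 for the Col11a2 row itself, and none of them passed edgeR's test (log2 fold changes -0.11, -0.14 and -0.14 for Col11a2-2, Col11a2-3 and Col11a2-4). Col16a1-2 held 58.8 counts against 148 for Col16a1 (log2 fold change -0.12), and Col4a6-2 held 32.1 against 32.0 for Col4a6 (0.23). How reads were divided among these rows is not given in the sources used here, so the levels of Col11a2, Col16a1 and Col4a6 are uncertain.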
